A study of Homo sapiens with 2 samples.

Results

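The genes described are 10 integrin subunits that form receptors for collagen, fibronectin and vitronectin, 5 beta subunits (ITGB1, ITGB3, ITGB5, ITGB6, ITGB8) and 5 alpha subunits (ITGA1, ITGA2, ITGA4, ITGA5, ITGAV). They were taken by symbol in GENCODE release 44, as 10 of the integrin genes outside the hemidesmosome set, and each matched 1 of the 58735 Ensembl identifiers in the count tables. RNA came from MCF10a-Snail-ER cells, a non-tumorigenic human mammary epithelial line that stably expresses the epithelial repressor Snail fused to the estrogen receptor. All of it was from cells given 100 nM tamoxifen for 1 day to begin an epithelial-to-mesenchymal transition, and no untreated sample was analysed here. Polyadenylated RNA was read as native strands on a MinION (Nanopore direct RNA) and, in parallel, as fragmented and amplified cDNA from a TruSeq stranded mRNA library (Illumina). There was 1 library per platform, so no value has a replicate. Each test below is on the reads of these 2 libraries and each interval covers counting error only, the more so as amplified reads are not independent molecules.

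Integrins are receptors of 1 alpha and 1 beta chain that link the matrix outside the cell to actin inside it. ITGB1 is the shared beta chain of the classical collagen and fibronectin receptors, and pairs with ITGA1 and ITGA2 (collagen) and with ITGA4 and ITGA5 (fibronectin). ITGAV pairs with ITGB1 and also with ITGB3, ITGB5, ITGB6 and ITGB8, in receptors for vitronectin, fibronectin and the latent form of TGF-beta. Mammary epithelial cells in culture use these receptors to hold on to, and move over, the matrix that they lay down.

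Direct RNA gave 403235 gene counts and Illumina 191741714. Counts were scaled to 1000000 per library (CPM), so 1 count was worth 2.48 CPM by Nanopore and 0.00522 CPM by Illumina. With 3 counts as the floor of detection, the floors were 7.44 and 0.0156 CPM. The 10 integrins together had 294 Nanopore counts (729 CPM) and 281380 Illumina counts (1467 CPM), so the Nanopore depth limited every comparison. Illumina found a count for all 10 genes and Nanopore for 9 of them.

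ITGB1 (ENSG00000150093, chromosome 10, 32887273 to 33005792, hg38) was the most abundant of the 10 genes by Nanopore. It had 166 Nanopore counts, 412 CPM with a 95% Wilson interval of 354 to 479, and 140785 Illumina counts, 734 CPM (730 to 738). It was lower by Nanopore, with a log2 ratio of −0.83 for Nanopore CPM plus 1 over Illumina CPM plus 1 (exact binomial test, Benjamini-Hochberg adjusted p = 2.69e-15). An Illumina library gives more reads per molecule to a longer transcript and a direct RNA library does not, so the ratio was also taken against Illumina counts divided by length and rescaled to the same total (TPM). With the length of the MANE Select transcript, 3735 bases, the ratio turned to 0.40 (exact binomial test, Benjamini-Hochberg adjusted p = 0.00205). With the union of all annotated exons, 14561 bases for this gene, it turned to 1.58 (the same exact test, adjusted p = 8.86e-32).

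Part of the ITGB1 message has an identical copy elsewhere in the genome. ITGB1P1 (ENSG00000269378, chromosome 19, 14621634 to 14622242) is a processed pseudogene of 609 bases, and all 609 matched bases 1872 to 2480 of the MANE Select transcript of ITGB1 without a difference. That stretch lies in the coding sequence, which runs from base 87 to 2483, and crosses 3 of its exon junctions. A window of 120 bases around the junction of exons 13 and 14 is shown because short reads within it match both genes. It covers bases 1958 to 2077 of the ITGB1 transcript and 87 to 206 of the pseudogene, and the capitals mark the 10 bases at the junction.
ITGB1 and ITGB1P1: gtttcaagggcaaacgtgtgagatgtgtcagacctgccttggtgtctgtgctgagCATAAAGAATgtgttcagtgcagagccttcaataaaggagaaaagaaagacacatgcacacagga
ITGB1P1 had 6458 Illumina counts, 33.7 CPM, which is 4.59% of the count of ITGB1. It had no Nanopore count, where the Illumina share would give 13.6 counts, and so was at least 4.53-fold lower by Nanopore with 3 counts as the floor (exact binomial test, Benjamini-Hochberg adjusted p = 1.24e-05). Summing both genes in each library moved the log2 ratio of ITGB1 only to −0.90.

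The lncRNA ITGB1-DT begins inside the annotated body of ITGB1, on the other strand. The RefSeq window before the start of ITGB1 (GRCh38.p14, chr10:32958231-32958480, minus strand) is shown because it precedes a RefSeq start of ITGB1 and holds the start of ITGB1-DT, with the 44 bases that lie within the annotated body of ITGB1-DT in capitals.
ITGB1 upstream window: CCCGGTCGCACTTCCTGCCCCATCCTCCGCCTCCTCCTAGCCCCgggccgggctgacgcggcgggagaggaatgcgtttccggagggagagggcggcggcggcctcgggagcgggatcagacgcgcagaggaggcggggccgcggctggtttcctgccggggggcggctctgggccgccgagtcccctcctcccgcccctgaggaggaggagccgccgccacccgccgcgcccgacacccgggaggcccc
A second RefSeq window of ITGB1, further inside the gene, is not shown. With the 50 bases after the start, the window shown of 300 bases had 39 CG dinucleotides, and 8.71% of the 35116 RefSeq windows had as many or more. ITGB1-DT had 1 Nanopore count and 246 Illumina counts, against 166 and 140785 for ITGB1, so nearly all counts at this pair of genes were assigned to ITGB1.

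ITGB5, the beta chain of a vitronectin receptor (ENSG00000082781, chromosome 3, 124761948 to 124901418), had 23 Nanopore counts, 57.0 CPM (38.0 to 85.6), and 18237 Illumina counts, 95.1 CPM. It was lower by Nanopore with a log2 ratio of −0.73 (exact binomial test, Benjamini-Hochberg adjusted p = 0.0250). That call was lost with TMM scaling of the libraries (exact binomial adjusted p = 0.0590, Benjamini-Hochberg), and the ratio turned to 0.73 with MANE Select TPM (exact test, adjusted p = 0.0570). With mean transcript length it was −0.67 (exact test, adjusted p = 0.0474), so its direction depended on the length used.

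ITGB8 (ENSG00000105855, chromosome 7, 20330702 to 20415754), a partner of ITGAV that binds latent TGF-beta, had 15 Nanopore counts, 37.2 CPM (22.5 to 61.4), and 3957 Illumina counts, 20.6 CPM. Its log2 ratio of 0.82 did not pass the test (exact binomial, Benjamini-Hochberg adjusted p = 0.0900), with an interval of 1.01 to 2.98 for the linear ratio before adjustment. Against Illumina TPM its log2 ratio lay between 2.85 and 3.04 under the 3 lengths tried, and passed the test under each of them (exact binomial, Benjamini-Hochberg adjusted p from 8.61e-10 to 7.99e-09). The Nanopore level of ITGB8 was within 2-fold of that of ITGB5 (37.2 and 57.0 CPM, overlapping intervals), whereas ITGB5 was 9.32 times ITGB8 by MANE Select TPM and 4.61 times by Illumina CPM.

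ITGB6 (ENSG00000115221, chromosome 2, 160099667 to 160200313), the epithelial partner of ITGAV that also binds latent TGF-beta, had 3 Nanopore counts, 7.44 CPM (2.53 to 21.9), and 3089 Illumina counts, 16.1 CPM. Its log2 ratio of −1.02 did not pass the test (exact binomial, Benjamini-Hochberg adjusted p = 0.332), and the linear ratio had an interval of 0.0952 to 1.35. ITGB3 (ENSG00000259207, chromosome 17, 47253827 to 47313743), the beta chain of the vitronectin receptor known from platelets and bone-resorbing cells, had no Nanopore count, with a Wilson interval up to 9.53 CPM. By Illumina it had 50 counts, 0.261 CPM (0.198 to 0.344), far under what the Nanopore depth could show. It shares 2266 exonic bases with the readthrough gene ENSG00000259753, which had 1 Nanopore and 11 Illumina counts.

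Among the alpha chains ITGA5, the fibronectin receptor chain (ENSG00000161638, chromosome 12, 54395261 to 54419266), had the largest ratio between the libraries in CPM. It had 33 Nanopore counts, 81.8 CPM (58.3 to 115), and 86597 Illumina counts, 452 CPM (449 to 455). The log2 ratio was −2.45, past a 4-fold difference (exact binomial test, Benjamini-Hochberg adjusted p = 2.66e-40). ITGA5 stayed lower by Nanopore under all 3 divisions by length, at −1.01 for union exonic length, −1.49 for mean transcript length and −1.03 for MANE Select length (exact binomial, Benjamini-Hochberg adjusted p = 3.26e-05 for the first and 1.90e-05 for the last). Division by length removed the 4-fold call but not the direction.

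ITGAV, the shared alpha chain of the vitronectin receptors (ENSG00000138448, chromosome 2, 186590010 to 186680901), had 27 Nanopore counts, 67.0 CPM (46.0 to 97.4), and 21516 Illumina counts, 112 CPM (111 to 114). It was lower by Nanopore with a log2 ratio of −0.74 (exact binomial test, Benjamini-Hochberg adjusted p = 0.0126), and at −0.61 with median-ratio scaling, where the call was lost (exact test, adjusted p = 0.0518). With MANE Select TPM (a transcript of 7039 bases, where the union of exons has 19336) the ratio turned to 1.37 (exact binomial, Benjamini-Hochberg adjusted p = 7.33e-05). ITGAV and ITGA5 were thus alike by Nanopore, at a ratio of 1.22 with overlapping intervals, while ITGA5 was 6.67 times ITGAV by MANE Select TPM and 4.02 times by Illumina CPM.

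ITGA1, a collagen receptor chain (ENSG00000213949, chromosome 5, 52787916 to 52959209), was the 1 integrin that passed the test with the higher value by Nanopore. It had 19 Nanopore counts, 47.1 CPM (30.2 to 73.6), and 2380 Illumina counts, 12.4 CPM (11.9 to 12.9), a log2 ratio of 1.84 (exact binomial test, Benjamini-Hochberg adjusted p = 1.43e-05). Its annotated body contains PELO (ENSG00000152684, 52787916 to 52804044), a gene for a factor that rescues stalled ribosomes, on the same strand and with the same first base. PELO had 16 Nanopore counts and 7324 Illumina counts, 39.7 and 38.2 CPM. In the Illumina library PELO was therefore the more abundant of the pair (ITGA1 at 0.325 of its count), and in the Nanopore library ITGA1 was, with 3 counts more than PELO.

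RefSeq gives ITGA1 and PELO the same upstream window (GRCh38.p14, chr5:52787666-52787915, plus strand), which is shown because it precedes the shared first base of both genes.
ITGA1 and PELO upstream window: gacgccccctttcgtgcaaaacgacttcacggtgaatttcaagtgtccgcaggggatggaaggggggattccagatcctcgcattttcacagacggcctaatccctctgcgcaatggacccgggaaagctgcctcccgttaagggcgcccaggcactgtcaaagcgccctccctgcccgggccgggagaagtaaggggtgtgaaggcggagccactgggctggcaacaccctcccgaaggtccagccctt
PELO shares 499 of its 4371 exonic bases with ITGA1. Taking the 16 PELO counts off the Nanopore count of ITGA1, an alternative chosen after the values were seen, left 3 counts, 7.44 CPM (2.53 to 21.9). The log2 ratio then turned to −0.67 and no longer passed the test (exact binomial, Benjamini-Hochberg adjusted p = 0.655), with an interval of 0.124 to 1.75 for the linear ratio. The direction of ITGA1 thus rested on counts as many as those of PELO, and the tables cannot say which reads they were.

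ITGA2, the other collagen receptor chain (ENSG00000164171, chromosome 5, 52989340 to 53094779), had 7 Nanopore counts, 17.4 CPM (8.41 to 35.8), and 4225 Illumina counts, 22.0 CPM. Its log2 ratio of −0.33 did not pass the test (exact binomial, Benjamini-Hochberg adjusted p = 0.790), and the interval of the linear ratio, 0.317 to 1.62, allows a difference in either direction. The ratio turned to 1.75 with MANE Select TPM and to 1.10 with union exonic length, and only the former passed (exact binomial, Benjamini-Hochberg adjusted p = 0.0133 and 0.136). ITGA4 (ENSG00000115232, chromosome 2, 181457202 to 181538940), a fibronectin and VCAM1 receptor chain best known from leukocytes, had 1 Nanopore count and 544 Illumina counts, 2.48 and 2.84 CPM. It was below the mean of 5 CPM set for testing. So was ITGB3.

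**Figure D1:**
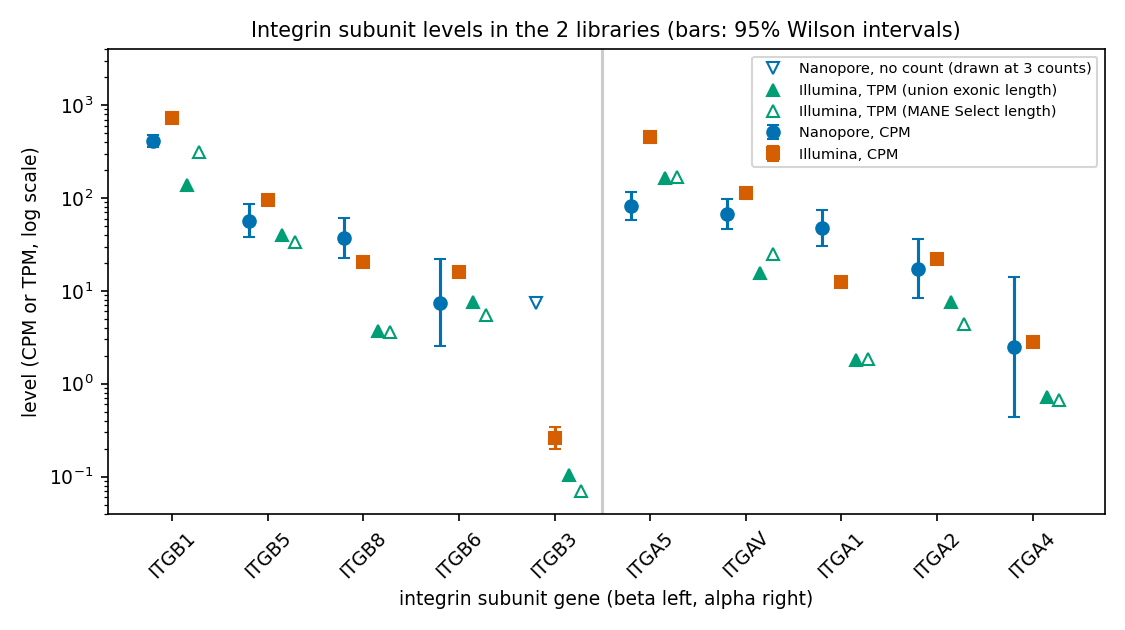
Level of each integrin gene on a log scale, as Nanopore CPM (circles), Illumina CPM (squares) and Illumina TPM by union exonic length (filled triangles) or MANE Select length (open triangles), with 95% Wilson intervals on the CPM values. ITGB1 is highest by Nanopore at 412 CPM, the circles of the next 5 genes lie between 37.2 and 81.8 CPM, and ITGB3 without a Nanopore count is drawn at the 3-count level of 7.44 CPM.

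Nanopore CPM was not divided by length, as a direct RNA read stands for 1 molecule. How reads over several genes were counted is not given, so the count of a gene may include reads of its neighbours. Ordered by Nanopore CPM, ITGB1 (412) was followed by ITGA5 (81.8), ITGAV (67.0), ITGB5 (57.0), ITGA1 (47.1), ITGB8 (37.2), ITGA2 (17.4), ITGB6 (7.44), ITGA4 (2.48) and ITGB3 (0). Only the step from ITGB1 to ITGA5, 5.03-fold, was larger than the intervals of its neighbours; every other pair of neighbours had overlapping intervals. By Illumina MANE Select TPM the order was ITGB1 (311), ITGA5 (168), ITGB5 (33.9), ITGAV (25.2), ITGB6 (5.50), ITGA2 (4.45), ITGB8 (3.64), ITGA1 (1.83), ITGA4 (0.662) and ITGB3 (0.0695). ITGB1, ITGA5, ITGB5 and ITGAV thus led in both libraries, while ITGB8 came after ITGB6 and ITGA2 on this scale and before both by Nanopore. With mean transcript length ITGB8 (4.28 TPM) came before ITGA2 (3.61 TPM). ITGA1 also stood lower by TPM, but less the PELO counts its Nanopore level was 7.44 CPM, that of ITGB6. With union exonic length ITGA5 (166 TPM) came before ITGB1 (137 TPM).

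Shares within the family do not depend on how the libraries are scaled to each other. Among the 207 Nanopore counts of the 5 beta chains, ITGB1 held 80.2% (95% Wilson interval 74.2 to 85.1%), ITGB5 11.1% (7.52 to 16.1%), ITGB8 7.25% (4.44 to 11.6%), ITGB6 1.45% and ITGB3 0%. By MANE Select TPM ITGB1 held 87.8%, ITGB5 9.57%, ITGB8 1.03% and ITGB6 1.55%. The TPM shares of ITGB5, ITGB6 and ITGB3 lay inside the Nanopore intervals, that of ITGB1 above its interval and that of ITGB8 below. Both libraries thus had ITGB1 as the main beta chain (72.9% by union exonic length, below the Nanopore interval), and ITGB8 had a larger share by Nanopore under either length.

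The alpha chains were split more evenly by Nanopore than by Illumina. Of their 87 Nanopore counts, ITGA5 held 37.9% (28.5 to 48.4%), ITGAV 31.0% (22.3 to 41.4%), ITGA1 21.8% (14.5 to 31.6%), ITGA2 8.05% (3.95 to 15.7%) and ITGA4 1.15%. By MANE Select TPM ITGA5 held 83.9%, ITGAV 12.6%, ITGA2 2.22%, ITGA1 0.913% and ITGA4 0.331%. Of these only the share of ITGA4 was inside its Nanopore interval. With the 16 PELO counts taken off ITGA1, its Nanopore share was 4.23% (1.45 to 11.7%) of 71 counts, and those of ITGA5 and ITGAV were 46.5% (35.4 to 58.0%) and 38.0% (27.6 to 49.7%).

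**Figure D2:**
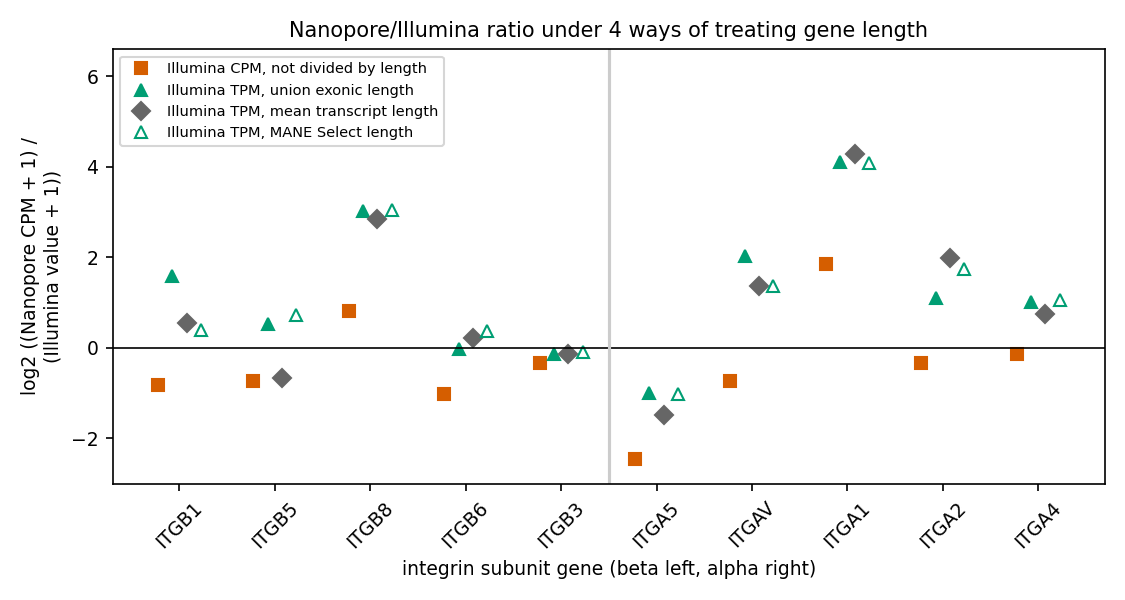
Log2 ratio of Nanopore CPM plus 1 over the Illumina value plus 1 for each integrin gene, with Illumina as CPM or as TPM by 3 lengths. ITGA5 is below 0 in all 4 (from −2.45 to −1.01), and ITGB8 and ITGA1 (PELO counts left in) are above 0 in all 4. ITGB1, ITGAV, ITGA2 and ITGA4 change side under each of the 3 lengths. ITGB5 does so with union exonic and MANE Select length, and ITGB6 with mean transcript and MANE Select length.

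Across the family, 8 of the 10 genes had a mean of at least 5 CPM and were tested among 12414 genes. By the exact test 1 of them, ITGA1, was higher by Nanopore, against 20.2% of all tested genes, and 4, ITGB1, ITGA5, ITGAV and ITGB5, were higher by Illumina, against 27.2%. A 4-fold difference was reached by ITGA5 alone, in the direction that 7.31% of tested genes took, and by none in the other direction (12.9% of tested genes). The median log2 ratio of the 8 was −0.73, beside −0.42 over all tested genes and −0.58 over the 10498 protein-coding ones. With MANE Select TPM 5 of the 8 were higher by Nanopore (34% of tested genes) and 1, ITGA5, by Illumina (11.2%), with a median of 1.05 beside 0.50. A 4-fold difference was then reached by 2 in the Nanopore direction (17.2% of tested genes) and none in the other (3.23%), and with union exonic length by 3 (15.5%) and none (4.84%). Against the MANE Select median of 0.50 over all tested genes ITGB8 stood 2.54 higher, ITGAV 0.87 higher and ITGA1 3.58 higher, ITGB1 was 0.10 lower, and ITGA5 was 1.53 lower. The PELO counts were left in ITGA1 throughout, and without them its CPM ratio was −0.67 and did not pass the test.

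Exonic length moved with the ratio over all genes, so each integrin was placed among tested genes of similar union exonic length. The 10 genes have unions of exons of 5785 to 19336 bases, and 5 of them, ITGB1, ITGA1, ITGAV, ITGB8 and ITGA4, fall in the length range of the longest of 5 equal groups of tested genes (at least 8628 bases), whose median log2 ratio was −0.91. ITGB1 and ITGAV stood near the middle of that group, with 53.3% and 57.1% of its genes below them. ITGB8 (93.6%) and ITGA1 (96.8%, PELO counts not taken off) stood near its top. In the next group (5833 to 8626 bases, median −0.77) ITGB5 stood at 52.0% and ITGA2 at 67.1%, while ITGA5 stood at 5.59%. ITGB6, the shortest of the 10 by union of exons (group median −0.58), stood at 32.5%. The MANE Select transcript of ITGB1, at 3735 bases, would fall in the range of another group (2238 to 3966 bases, median −0.23). The place of ITGB1 thus holds for the union of exons only. These places are a description of the 2 libraries, and the 3 genes at the edges were not tested against others of their length.

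**Figure D3:**
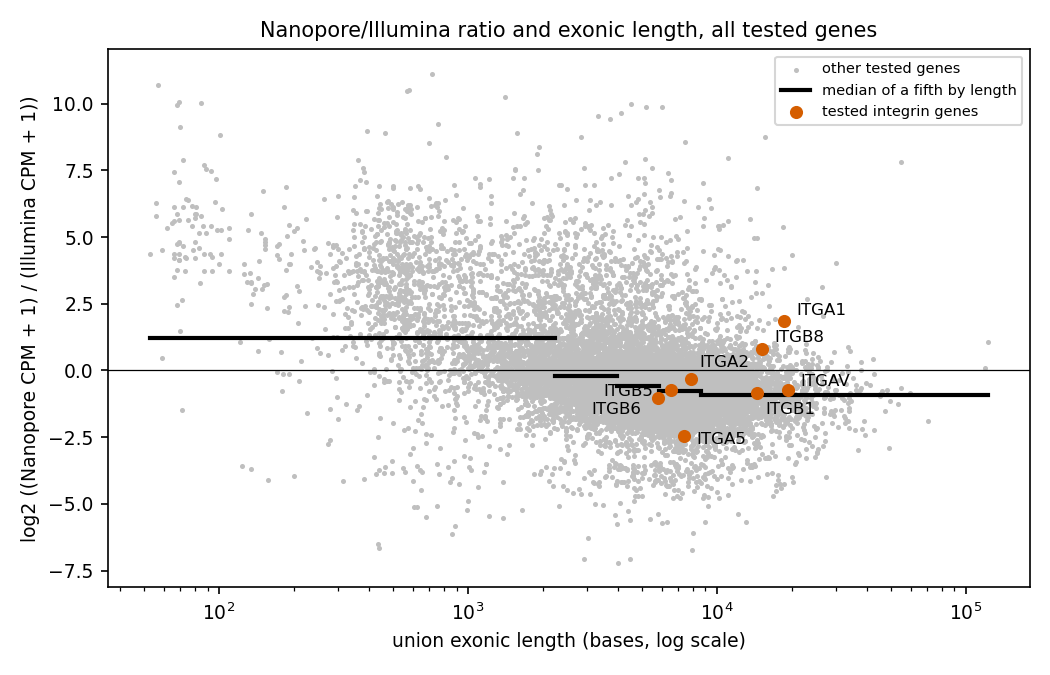
Log2 Nanopore/Illumina ratio (CPM, pseudocount 1) of all tested genes against union exonic length on a log scale (grey), with the 8 tested integrins in orange and the median of each of 5 length groups as black lines. ITGB1, ITGAV and ITGB5 lie close to the line of their group, ITGA1 and ITGB8 above it and ITGA5 below it.

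Each of the 10 genes overlaps another annotated gene, and 23 such genes are in the tables. Of these 11 had a Nanopore count and 13 an Illumina count. The counts of some pairs were close by Nanopore and far apart by Illumina. ITGAV and ENSG00000227227, a lncRNA gene on the opposite strand (chromosome 2, 186641339 to 186695287), each had 27 Nanopore counts, and 21516 and 16 Illumina counts. ITGA5 had 33 Nanopore counts and each of the 2 identifiers named GPR84-AS1 (ENSG00000258137 and ENSG00000258086), whose bodies contain ITGA5 on the other strand, had 38, against 86597, 189 and 38 Illumina counts. Both also contain ZNF385A, with 4 Nanopore counts, and ITGA5 and ZNF385A sum to 37.

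ITGB6 and the lncRNA ENSG00000285155 on the same strand, which share 966 exonic bases, had 3 Nanopore counts each, and 3089 and 233 by Illumina. ITGA4 and CERKL, opposite genes that share 2813 exonic bases, had 1 Nanopore count each, and 544 and 589 by Illumina. ITGA2-AS1 lies opposite the end of ITGA1, with 1385 exonic bases in common, and was counted 5 times by Nanopore and never by Illumina. Near ITGA2, ENSG00000272123 had 1 and 15 counts, and near ITGB3, EFCAB13-DT had 1 and 0. Overlapping genes with Illumina counts only were ITGB8-AS1 (171), AK3P5 within ITGB1 (36), PELO-AS1 (2) and ENSG00000280042 within ITGB5 (2).

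Over the whole tables, 655 pairs have 1 gene body inside another and at least 10 Nanopore counts for the inner gene. The outer gene had at least the inner count in 96.2% of them by Nanopore and in 62.0% by Illumina, and the same held for pairs on opposite strands (96.3% and 63.7% of 465). How reads over several genes were counted is not given in the sources used here, so the Nanopore counts of ITGA1 (with PELO) and of the genes opposite ITGAV and ITGA5 cannot be told apart from those of their neighbours. Sequence shared with other genes was lowest for ITGB5 (0 of its 50-base words), ITGA5 (0.0255%) and ITGA2 (0.235%), and highest for ITGB3 (34.9%, most of it with its readthrough gene) and ITGA4 (25.9%, with CERKL).

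**Figure D4:**
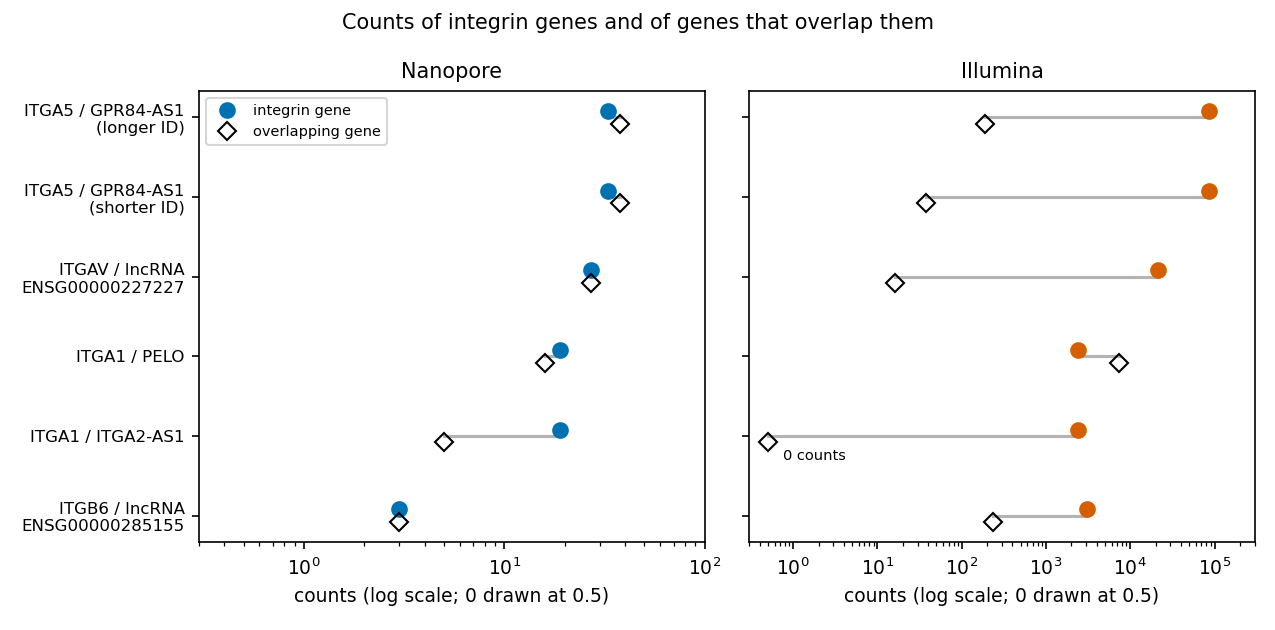
Counts of ITGA5, ITGAV, ITGA1 and ITGB6 (filled circles) and of selected genes overlapping them (open diamonds), by Nanopore (left) and Illumina (right), on log axes with 0 drawn at 0.5. By Nanopore the symbols of the drawn pairs nearly coincide except for ITGA2-AS1 (5 against 19), and by Illumina they are apart, with PELO the only partner above its integrin. Some pairs not drawn were far apart by Nanopore too, such as ITGB1 and ITGB1-DT (166 and 1).

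Of 16 other integrin genes, 5 were tested. In CPM 3 of them passed the test as higher by Illumina (27.2% of all tested genes did) and none as higher by Nanopore (20.2%), and by MANE Select TPM 0 passed as higher by Illumina (11.2%) and 2 as higher by Nanopore (34%). ITGA3 and ITGA6, laminin receptor chains, and ITGB4, the hemidesmosome beta chain, had 47, 20 and 55 Nanopore counts (117, 49.6 and 136 CPM) and were at 355, 202 and 212 CPM by Illumina. Their log2 ratios were −1.60, −2.01 and −0.64 (exact binomial test, Benjamini-Hochberg adjusted p at most 0.00175). In Illumina TPM by union exonic length they were at 98.0, 82.0 and 85.1. On that scale ITGA3 and ITGB4 were below their Nanopore CPM and ITGA6 was above it. The leukocyte and platelet chains ITGAL, ITGAM, ITGAX, ITGAD, ITGB7 and ITGA2B had no Nanopore count and at most 39 Illumina counts each, and ITGB2 had 2 and 715.

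Ligands of these receptors came from a list of 29 genes, of which 14 were tested; 3 passed the test as higher by Nanopore and 7 as higher by Illumina, beside 20.2% and 27.2% of all tested genes. FN1, fibronectin, had 22 Nanopore counts, 54.6 CPM (36.0 to 82.6), and 263 CPM by Illumina, a log2 ratio of −2.25 (exact binomial, Benjamini-Hochberg adjusted p = 9.92e-22). LTBP1, which ties latent TGF-beta to the matrix, had a ratio of −2.11, and FBN1, fibrillin, had no Nanopore count and 3458 Illumina counts (exact binomial, Benjamini-Hochberg adjusted p = 7.92e-17 and 0.00421). The matricellular ligands CCN2 and CCN1 were the most abundant of the list by Nanopore, at 322 and 265 CPM. CCN2, CCN1 and TGFB1 were higher by Nanopore, with ratios of 1.57, 0.35 and 1.47 (exact binomial, Benjamini-Hochberg adjusted p at most 0.0361). VTN, vitronectin itself, had no Nanopore count and 10 Illumina counts, and VCAM1, the cell-bound ligand of ITGA4, had none in either library. These ratios are for counts not divided by length. By union exonic length FN1 was at 41.4 TPM, below its Nanopore CPM, and LTBP1 and FBN1 were at 80.2 and 2.64 TPM, above theirs. CCN2, CCN1 and TGFB1 were at 125, 152 and 46.9 TPM, still below their Nanopore CPM. By MANE Select TPM 4 of 12 tested ligands passed as higher by Nanopore and 0 by Illumina, beside 34% and 11.2% of all tested genes.

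The proteins that switch integrins on or off were given by 23 genes, of which 19 were tested; 3 passed as higher by Nanopore and 9 by Illumina, against the same 20.2% and 27.2%. TLN1, talin, which activates integrins from inside the cell, had 32 Nanopore counts, 79.4 CPM, and 295 CPM by Illumina, and FERMT1, the epithelial kindlin, had 8 counts, 19.8 CPM, and 84.9 CPM. FLNA, filamin, which competes with talin for the beta tail, had 96 counts, 238 CPM, and 789 CPM, a ratio of −1.72. KRIT1 had the lowest ratio of the list, −3.08, on 1 Nanopore count. SHARPIN, an inhibitor of integrin activation, had 70 counts, 174 CPM against 38.0 CPM, a ratio of 2.16. CD9, a tetraspanin that binds integrins, and RAP1B, a small GTPase that promotes their activation, were also higher by Nanopore, at 1.37 and 0.92. CD81, another tetraspanin, was as abundant as FLNA by Nanopore, at 238 CPM against 187, and did not pass (exact binomial, Benjamini-Hochberg adjusted p = 0.0555). The adjusted p-values of the other genes named here by the exact binomial test (Benjamini-Hochberg) were at most 0.000919. By union exonic length TLN1, FERMT1 and KRIT1 were at 80.4, 22.5 and 3.65 TPM, above their Nanopore CPM (79.4, 19.8 and 2.48). FLNA was at 197 TPM, below its Nanopore CPM. SHARPIN, CD9, RAP1B and CD81 were also below theirs, at 37.0, 19.3, 9.98 and 63.6 TPM. By MANE Select TPM 10 of 19 passed as higher by Nanopore and 1 by Illumina, against 34% and 11.2%.

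Of 28 scaffold and signalling genes of the adhesion site, 25 were tested, none passed as higher by Nanopore (20.2% of all tested genes did) and 16 did by Illumina (27.2%). ACTN4, an actin crosslinker, had 19 Nanopore counts, 47.1 CPM against 315, a ratio of −2.72, and CRKL, an adaptor, and SRC, a kinase, had ratios of −2.33 and −2.05 (exact binomial, Benjamini-Hochberg adjusted p at most 0.000127 for the 3). ACTN1 and ZYX were the most abundant of this list by Nanopore, at 176 and 174 CPM, and ZYX had the same level by Illumina, 174 CPM (exact binomial adjusted p = 1, Benjamini-Hochberg). By union exonic length ACTN4, CRKL and SRC were at 139, 40.0 and 20.7 TPM, still above their Nanopore CPM. ACTN1 and ZYX were at 63.1 and 144 TPM, below theirs. By MANE Select TPM 7 of the 25 passed as higher by Nanopore (34% of all) and 2 by Illumina (11.2%). With union exonic length these were 10 (32.4%) and 3 (12.8%), and with mean transcript length 3 (27.6%) and 5 (14.2%). The split thus depended on the length used, and a lean to Illumina remained with mean transcript length. The medians of the 25 were −0.99 in CPM, 0.40 by MANE Select length and −0.21 by mean transcript length. Those over all tested genes were −0.42, 0.50 and 0.24.

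Markers set the cells beside their label. All 10 basal mammary epithelial markers were found by both libraries, at a summed 9920 CPM by Nanopore and 11932 by Illumina. S100A2 held most of either sum, at 5989 and 7687 CPM, and KRT5 was at 1686 and 1447 CPM. Markers of fibroblasts summed to 27.3 and 34.0 CPM, with COL1A1, COL3A1, LUM, PDGFRB and PDGFRA at 0 by Nanopore and DCN at 24.8 and 26.5 CPM. Those of endothelium summed to 2.48 and 6.85 CPM. Leukocyte and platelet markers summed to 49.6 and 60.2 CPM, and CD68, CD14 and ITGB2 held all of their Nanopore counts. PTPRC, the pan-leukocyte marker, had 0 and 2 counts. Luminal markers summed to 1654 and 697 CPM, and to 689 and 553 CPM without ESR1. KRT8, at 389 and 209 CPM, and KRT18, at 280 and 322 CPM, held most of the latter sums. FOXA1, PGR and ELF5 had no Nanopore count, and FOXA1 had 952 Illumina counts. ESR1 had 965 and 143 CPM in cells that carry an estrogen receptor fusion, whose part in that count was not tested.

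The protein-coding genes nearest to ITGB1 in log2(CPM + 1), over 2 libraries only, were VDAC1 (167 Nanopore and 141825 Illumina counts), RPS28 (172 and 146048) and EEF1B2 (159 and 130579), at distances of 0.0137, 0.0735 and 0.125. By union exonic length they were at 657, 974 and 963 TPM, well above the 137 TPM of ITGB1, so the likeness was in counts and not in level by that length. ITGB1 was at 311 TPM by MANE Select length, and the 3 genes were not compared with it on that scale.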

How the data were processed

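The authors deposited whole-number counts per Ensembl gene for 2 libraries, without normalization, as the values show. The header of the Nanopore column carries a suffix that no label explains, and whether its reads were corrected before counting is not given in the sources used here. Per the submitters' processing notes hg38, minimap2 2.11-r797, HISAT2 2.1.0 and featureCounts were used; their roles, options and annotation are not given in the sources used here. Of 58735 identifiers, 58207 matched GENCODE release 44 (hg38), from which names, coordinates and lengths were taken. The other 528 held 0.396% and 0.172% of the counts. On the MANE Select scale, genes without a MANE Select transcript were divided by their union exonic length. Upstream windows are from RefSeq (GRCh38.p14), which had 9 of the 10 genes.

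Counts were scaled to library totals. Ratios are log2 of Nanopore over Illumina CPM with a pseudocount of 1, which understates differences of rare genes. A gene entered the test when its mean over both libraries reached 5 CPM; the test was the exact binomial one on its 2 counts given their sum, two-sided (scipy 1.17.1, Python 3.11.15), Benjamini-Hochberg adjusted over all of them. Calls needed an adjusted p under 0.05 and, where stated, a 4-fold ratio. With 1 library per group no edgeR model could be fitted; edgeR 4.0.16 (R 4.3.3) gave TMM factors only. The test was checked on simulated data, where it called every gene raised in Nanopore, missed some lowered ones and called a few unchanged ones. Only genes of at least 20 Illumina CPM were changed there, a level that ITGA1 does not reach. The simulated counts held counting error alone, without counts shared between overlapping genes. Genes named from lists are the 3 highest and 3 lowest ratios past the test and the 2 most abundant by Nanopore. Also named are ITGA3, ITGA6, ITGB4, FN1, every overlapping gene with a count and the 3 protein-coding genes nearest to ITGB1. ITGB1P1, VTN, VCAM1, the leukocyte and platelet chains and single markers fall outside that rule and were named after their values were seen. The members and lists were chosen with earlier results of these data known.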

Additional observations from a re-analysis of the deposited data

How the results depend on the processing

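The Nanopore depth limits every value, since 1 count there is 2.48 CPM. No paired analysis was possible because each platform has 1 library, and none could be left out. Pseudocounts of 0.1 and 5 CPM could change neither the side of a ratio nor the test, which uses the counts, so they only moved its size. Filters at a mean of 1 CPM or none leave each ratio as it is and change only the adjustment. They kept the call of all 10 genes. TMM scaling raised the Nanopore/Illumina ratio by 0.09 and median-ratio scaling by 0.13 (log2): ITGB5 lost its call under both (−0.64 and −0.60) and ITGAV under the second (−0.61), which left 2 integrins higher by Illumina. ITGA5 kept its direction and its call under every setting tried on it.

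Division by union exonic, mean transcript and MANE Select length turned the ratios of 5, 5 and 6 of the 10 genes. With union exonic length ITGB1 was at 1.58, ITGA2 at 1.10, ITGA4 at 1.02, ITGAV at 2.02 and ITGB5 at 0.52. With mean transcript length ITGB1 was at 0.54, ITGA2 at 1.99, ITGA4 at 0.75, ITGAV at 1.37 and ITGB6 at 0.21. With MANE Select length, added after the data were seen, ITGB1 was at 0.40, ITGA2 at 1.75, ITGA4 at 1.07, ITGAV at 1.37, ITGB5 at 0.73 and ITGB6 at 0.38. These divisions moved the median of all tested genes from −0.42 to 0.40, 0.24 and 0.50. Of the 8 tested integrins 4, 5 and 5 were then higher by Nanopore (4-fold: 3, 2 and 2), beside 32.4%, 27.6% and 34% of all tested genes. Those higher by Illumina were 1, 2 and 1 (4-fold: 0 in each), beside 12.8%, 14.2% and 11.2%. Among all 11976, 11814 and 11641 tested genes, 3880, 3256 and 3960 were higher by Nanopore (4-fold: 1859, 1741 and 2003). Those higher by Illumina numbered 1535, 1674 and 1299 (4-fold: 580, 389 and 376). Taking the PELO counts off ITGA1 turned its ratio to −0.67.

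With a 2-fold threshold 1 integrin and 2197 of the 12414 tested genes were higher by Nanopore. In the Illumina direction there were 1 integrin and 2699 genes. A pseudocount of 5 CPM gave 1 integrin and 449 genes 4-fold higher by Illumina. Among the 2810 tested genes that overlap no other, which include no member, 240 were higher by Nanopore (86 of them 4-fold) and 879 by Illumina (250 of them 4-fold). The Illumina share of ITGB1 among the beta chains was 72.9% by union exonic length, 84.8% by counts and 87.8% by MANE Select length, and that of ITGA5 among the alpha chains was 86.5% and, by counts, 75.1%. The cause of these shifts was not tested beyond the construction of each setting.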
